A study of Mus musculus with 9 samples.

Results

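Chemokine ligands are small secreted proteins that guide the movement of cells, and this account describes their RNA in mouse iPS cells, in the embryonic stem cell line R1 and in embryonic fibroblasts (MEF). The members are the genes named Ccl or Cxcl with a number, together with Cx3cl1 and Xcl1, taken by symbol from probe sets annotated to exactly 1 gene. The rule found 34 such genes among 19938 genes measured. The rule uses symbols and no signal, though the family was picked for description with earlier results of these data known. Where more than 1 probe set measured a gene, the brightest on average was used.

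The iPS cells are, per the labels, inducible pluripotent stem cells derived from embryonic fibroblasts, and the MEF are the cells used to derive them, grown in vitro to a passage below 3. R1 is an established mouse embryonic stem cell line. Each group had 3 arrays, described in the design text as biological repeats, with total RNA labelled for Affymetrix whole-transcript arrays. The labels give no strain, sex, culture medium or feeder layer for any group and do not say how many iPS clones were used, so the spread behind each p-value is that among these samples and may be technical.

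Chemokines are classed by the spacing of their first cysteines into CC, CXC, CX3C and XC ligands, and they act through G protein-coupled receptors on leukocytes, stem cells and stromal cells. Inflammatory chemokines are transcribed on demand after signals such as NF-kB and interferon, whereas homeostatic chemokines are made steadily by stromal cells. Fibroblasts are a known source of both kinds. Many ligands are held on cell surfaces and in the matrix by heparan sulfate chains.

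A small set of ligands had less signal in both pluripotent groups than in the fibroblasts. Cxcl12, Cxcl14, Cx3cl1, Cxcl5 and Ccl7 fell in iPS cells against MEF and in R1 cells against MEF, and Ccl2 fell in R1 cells. No member rose in either comparison, and 28 of the 34 were called in no comparison. Calls needed a limma p, adjusted by Benjamini-Hochberg over all 19938 genes, under 0.05 and a difference of at least 1 in log2(signal + 16), and "rose" and "fell" are used only of called genes.

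In iPS against MEF, 5 of 34 ligands were called, all lower, which is 14.7% of the members. Of all genes, 12.7% were called, 7.58% lower and 5.08% higher. In R1 against MEF, 6 of 34 were called, all lower (17.6%), where 13.5% of all genes were called, 7.94% lower and 5.56% higher. The share called in either direction was thus near that of all genes. The median difference of the members was -0.02 in iPS against MEF and -0.01 in R1 against MEF, beside 0.02 in both comparisons over all genes. Both comparisons share the MEF arrays.

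Counted by arrays that do not overlap, 8 ligands were lower and 5 higher in iPS against MEF, beside 24.9% and 27.3% of all genes. In R1 against MEF, 11 were lower and 5 higher, beside 25.3% and 29.1% of all genes.

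**Figure D1:**
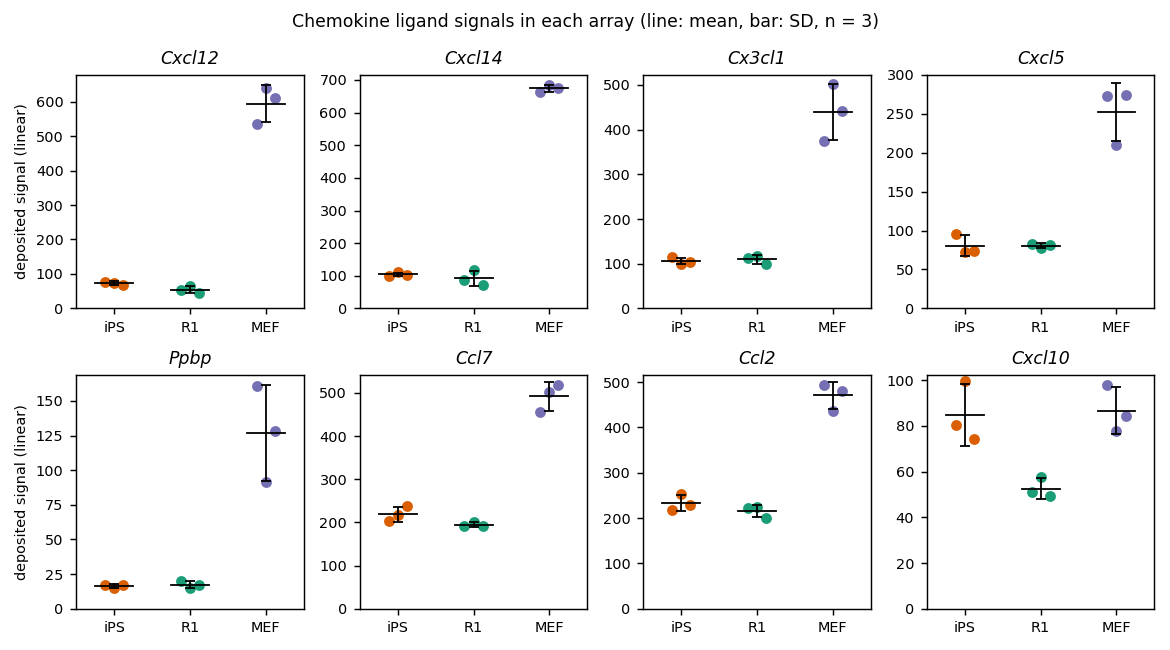
Deposited linear signal (y axis, from 0, scale differing by panel) of 8 chemokine ligands in the iPS, R1 and MEF arrays, with a point per array, a line at the mean and a bar of 1 SD (n = 3). In the panels from Cxcl12 to Ccl2 every iPS and R1 array lies under every MEF array, and Cxcl10 is low in R1 alone.

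The RefSeq promoter table (GRCm38.p6) held a window for 23 of the 34 members, and for 3 of the 6 that were called. The 200 bases before the annotated start are shown for the 3 called ligands that had a window, because these carry the drop from MEF. The Cxcl12 window is chr6:117168335-117168534 on the plus strand, the Cxcl14 window is chr13:56296552-56296751 on the minus strand and the Cx3cl1 window is chr8:94771980-94772179 on the plus strand. Capitals mark the GC box GGGCGG on either strand and the letters of the TATA box, TATAAA, at any position.
Cxcl12: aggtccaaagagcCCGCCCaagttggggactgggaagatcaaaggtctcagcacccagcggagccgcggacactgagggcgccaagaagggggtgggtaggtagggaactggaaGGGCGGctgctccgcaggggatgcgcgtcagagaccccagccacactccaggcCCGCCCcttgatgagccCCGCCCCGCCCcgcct
Cxcl14: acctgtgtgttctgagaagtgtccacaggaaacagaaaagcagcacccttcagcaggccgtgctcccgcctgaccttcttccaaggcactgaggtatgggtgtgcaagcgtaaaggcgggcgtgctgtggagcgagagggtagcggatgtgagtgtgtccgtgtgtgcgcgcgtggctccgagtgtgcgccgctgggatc
Cx3cl1: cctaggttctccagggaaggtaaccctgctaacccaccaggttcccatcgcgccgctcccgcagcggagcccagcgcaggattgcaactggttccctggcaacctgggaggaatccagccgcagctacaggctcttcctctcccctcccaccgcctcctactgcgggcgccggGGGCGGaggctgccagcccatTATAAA
The Cxcl12 window held 5 GC boxes, of which the pair nearest the start overlaps by 1 base. The Cx3cl1 window held 1 GC box and, ending at the base before the start, 1 TATAAA. None of the 4 motifs searched (these, the NF-kB motif and the AP-1 motif TGANTCA, each on both strands) was found in the Cxcl14 window. On either strand, GGGCGG occurred in 31.1% and TATAAA in 9.96% of all 32843 windows of this length. Among the 23 members with a window, 4 held GGGCGG (Ccl28, Cx3cl1, Cxcl2 and Cxcl12) and 9 held TATAAA (Ccl8, Ccl9, Ccl12, Ccl25, Cx3cl1, Cxcl3, Cxcl9, Cxcl13 and Cxcl15).

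Next to Cxcl5 on chromosome 5 lie Ppbp, Pf4, Cxcl3, Cxcl15, Cxcl1 and Cxcl2. The windows of 4 of these neighbours are shown because they lie in the run of Cxcl5, which had no window, and because 1 of them, Ppbp, also fell. Cxcl15 had a window too, which held TATAAA and no NF-kB motif and is not shown. Ppbp, which encodes the platelet chemokine Cxcl7 and is outside the naming rule, is at chr5:90768318-90768517. The windows of Cxcl1 (chr5:90891045-90891244), Cxcl2 (chr5:90903699-90903898) and Cxcl3 (chr5:90785901-90786100) follow, all on the plus strand. Cxcl10, the ligand that differed most between iPS and R1 cells, is at chr5:92348890-92349089 on the minus strand. Capitals here mark the NF-kB motif, TATAAA at any position, the GC box and, in Cxcl10, the AP-1 motif.
Ppbp: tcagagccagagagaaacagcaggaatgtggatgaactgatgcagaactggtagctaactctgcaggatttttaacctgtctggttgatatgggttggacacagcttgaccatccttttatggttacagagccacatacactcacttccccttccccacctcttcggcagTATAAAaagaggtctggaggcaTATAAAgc
Cxcl1: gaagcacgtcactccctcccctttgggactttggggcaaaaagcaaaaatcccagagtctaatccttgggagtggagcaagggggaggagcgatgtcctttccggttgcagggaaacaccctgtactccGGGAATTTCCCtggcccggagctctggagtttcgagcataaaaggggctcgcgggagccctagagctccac
Cxcl2: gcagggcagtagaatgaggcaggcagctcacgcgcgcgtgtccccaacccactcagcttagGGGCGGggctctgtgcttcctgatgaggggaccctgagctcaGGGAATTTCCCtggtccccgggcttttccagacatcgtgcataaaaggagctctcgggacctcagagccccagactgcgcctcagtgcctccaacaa
Cxcl3: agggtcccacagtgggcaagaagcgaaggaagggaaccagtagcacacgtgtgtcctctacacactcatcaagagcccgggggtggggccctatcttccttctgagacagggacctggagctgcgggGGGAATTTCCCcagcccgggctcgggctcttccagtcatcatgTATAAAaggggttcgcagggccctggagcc
Cxcl10: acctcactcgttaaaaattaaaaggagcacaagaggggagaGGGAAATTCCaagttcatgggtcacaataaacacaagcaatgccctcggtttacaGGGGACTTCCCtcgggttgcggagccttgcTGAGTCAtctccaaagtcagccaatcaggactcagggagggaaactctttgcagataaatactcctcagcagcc
Cxcl1, Cxcl2 and Cxcl3 each held the 11 bases GGGAATTTCCC, in which the NF-kB motif matches at a pair of overlapping positions. Cxcl10 held the motif at 3 positions, of which 2 overlap, and the AP-1 motif at 1. The Ppbp window held TATAAA at 2 positions and no NF-kB motif. Among the 23 members with a window, 7 held the NF-kB motif (Ccl1, Ccl9, Ccl20, Cxcl1, Cxcl2, Cxcl3 and Cxcl10), against 6.07% of all windows. None of these 7 was called in any comparison, but only 3 of the 23 were called at all. The called ligands Ccl2, Ccl7 and Cxcl5 had no window to search. The AP-1 motif was in 5.48% of all windows and in those of Ccl9 and Cxcl10. These matches describe letters in a window and do not show binding.

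Cxcl12, the stromal factor that draws and retains cells bearing the receptor Cxcr4, had the largest difference among the members. Its signal was 77.7, 73.5 and 66.7 in the iPS arrays and 54.6, 64.5 and 44.9 in the R1 arrays, against 534, 639 and 609 in the MEF arrays. No pluripotent array came near a MEF array. The log2 difference was -2.78 ± 0.10 (SE) in iPS against MEF (adjusted p = 2.32e-08, limma) and -3.115 ± 0.104 in R1 against MEF (adjusted p = 9.80e-09). These were the 146th and 125th most negative differences of 19938 genes. In bulk samples, fewer cells that make a transcript and less of it per cell cannot be told apart, here or below.

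Cxcl14, a ligand made by fibroblasts and epithelia whose receptor is not settled, followed the same order. The iPS arrays had 99.0, 111 and 103 and the R1 arrays 88.7, 118 and 71.5, against 662, 685 and 676 in MEF. All 3 MEF arrays lay far above the others. The difference of Cxcl14 was -2.52 ± 0.13 in iPS cells (adjusted p = 1.35e-07) and -2.69 ± 0.13 in R1 cells (adjusted p = 7.65e-08).

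Cx3cl1, or fractalkine, is anchored in the membrane on a mucin stalk and released by the proteases Adam10 and Adam17. Its signal was 115, 99.7 and 105 in iPS arrays and 113, 117 and 99.0 in R1 arrays, against 375, 502 and 443 in MEF arrays. The lowest MEF array was thus above every pluripotent array. The difference of Cx3cl1 was -1.89 ± 0.10 in iPS cells (adjusted p = 2.10e-07) and -1.85 ± 0.10 in R1 cells (adjusted p = 2.08e-07). Xcl1, the lymphotactin gene of the XC class, had differences of -0.02 and -0.03 and was not called.

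Among the members that are CXC ligands with the ELR motif, a class that draws neutrophils through Cxcr2, 1 of 5 fell. Cxcl5 had 95.7, 72.0 and 74.0 in iPS arrays and 82.7, 77.2 and 81.6 in R1 arrays, against 273, 209 and 274 in MEF arrays. Every MEF array was above them. The difference was -1.47 ± 0.11 in iPS cells (adjusted p = 2.71e-06) and -1.465 ± 0.114 in R1 cells (adjusted p = 2.60e-06). The others of these 5, Cxcl1, Cxcl2, Cxcl3 and Cxcl15, differed from MEF by -0.06 to 0.06 in both comparisons. Of them, Cxcl2, Cxcl3 and Cxcl15 averaged 29.0, 32.5 and 11.0 over the 9 arrays, signals not told apart from background. Ppbp (Cxcl7), left out of this count only by the naming rule, also fell (-2.11 in iPS, -2.07 in R1) and is described below. For Cxcl1, whose window above holds the NF-kB motif, the means were 135 ± 10.8 in iPS, 142 ± 21.0 in R1 and 139 ± 1.93 in MEF (SD, n = 3), so the groups differed by less than the spread of the R1 arrays.

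Among the 4 CC ligands known for attracting monocytes, Ccl7 and Ccl2 had the higher signals and were lower in both pluripotent groups than in MEF. Ccl7 had 202, 217 and 237 in iPS arrays and 191, 201 and 191 in R1 arrays, against 455, 502 and 519 in MEF. Ccl2, the best known of the class and a ligand of Ccr2, had 218, 253 and 229 in iPS and 221, 224 and 200 in R1, against 495, 437 and 481 in MEF. For both genes every MEF array exceeded every pluripotent array, and the pluripotent arrays lay between 191 and 253.

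The difference of Ccl7 was -1.11 ± 0.07 in iPS cells (adjusted p = 4.77e-07) and -1.27 ± 0.07 in R1 cells (adjusted p = 1.74e-07). Ccl2 fell in R1 cells (-1.075 ± 0.071, adjusted p = 8.14e-07), while its difference in iPS cells, -0.97 ± 0.07 (adjusted p = 1.87e-06), stayed under the minimum of 1. The iPS and R1 values of Ccl2 differed by 0.11 (unadjusted 95% interval -0.05 to 0.27). Ccl2 was called in iPS cells too without iPS replicate 2 or without MEF replicate 2 (both -1.02) and with a pseudocount of 1 (-1.01). With a pseudocount of 64, Ccl7 was not called in iPS cells (-0.975) and Ccl2 was not called in R1 cells (-0.94). The other monocyte ligands, Ccl8 and Ccl12, had signals of at most 21.1 in every array and differences between -0.06 and 0.07. At that level signal is not told apart from background, so a change in them could not be judged.

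**Figure D2:**
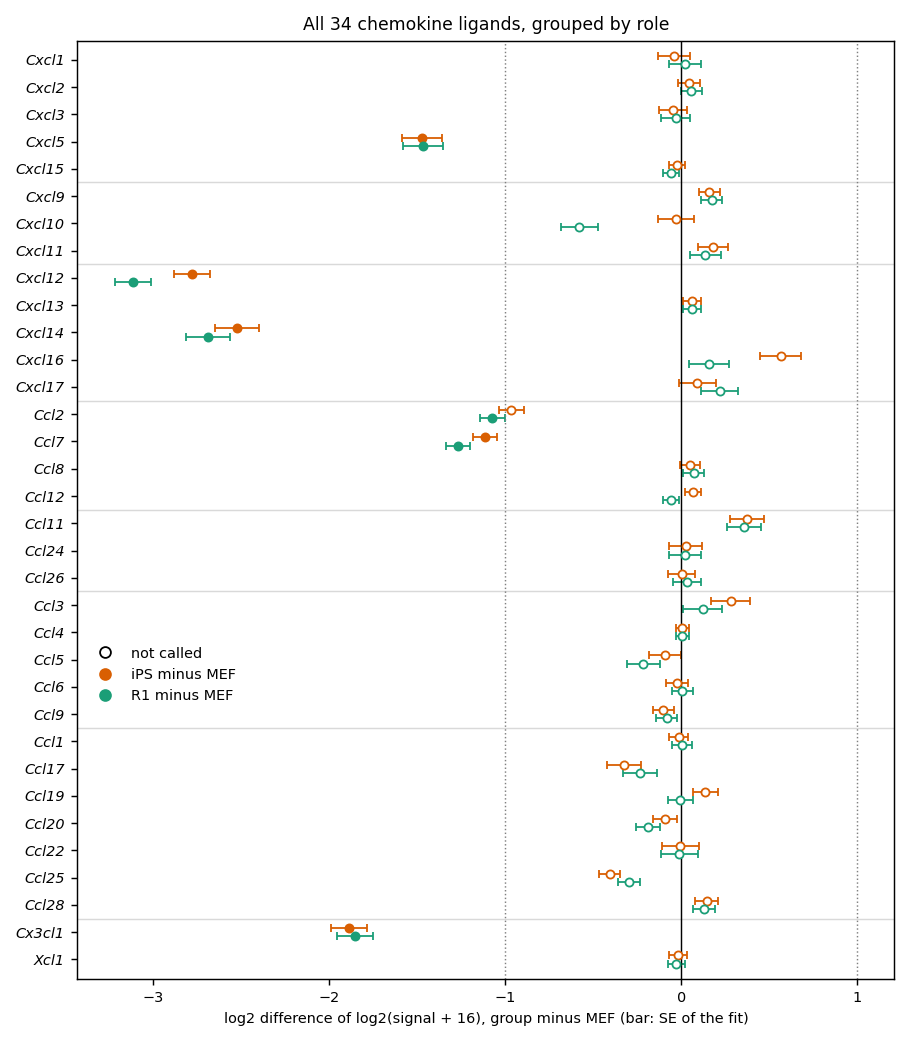
Difference from MEF on the log2(signal + 16) scale (x axis) for the 34 chemokine ligands, grouped by role and separated by grey lines, with iPS minus MEF above R1 minus MEF for each gene. Bars are the SE of the fit, filled points were called and dotted lines mark -1 and 1. Filled points appear only on the left, for 5 ligands in iPS and 6 in R1 cells.

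The 28 ligands called in no comparison had signals between 9.19 and 163 in single arrays, and 24 of them had a mean under 100 in every group. Over the 9 arrays, 17 of the 34 members had a mean signal under 50, which is 50% of the members, against 30.1% of all genes. No detection calls were used, so such a signal is not told apart from background, and the added 16 compresses its differences. For the CC ligands Ccl3, Ccl4, Ccl5, Ccl6 and Ccl9, the differences lay between -0.10 and 0.28 in iPS cells and between -0.22 and 0.12 in R1 cells. For 7 ligands known for homing and barrier tissues (Ccl1, Ccl17, Ccl19, Ccl20, Ccl22, Ccl25 and Ccl28), they lay between -0.41 and 0.14 in iPS cells and between -0.30 and 0.13 in R1 cells.

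Several ligands, chosen here after their values were seen, passed the adjusted p without reaching a difference of 1. With that looser rule, 8 members were lower and 2 higher in iPS against MEF, and 9 were lower and 2 higher in R1 against MEF. Of all genes, 23.2% were lower and 24.8% higher in iPS against MEF by this rule, and 23.0% lower and 25.9% higher in R1 against MEF. Ccl11, an eosinophil attractant, had 104, 111 and 87.4 in iPS and 92.4, 91.8 and 114 in R1, against 68.1, 78.8 and 74.5 in MEF. Every pluripotent array was above every MEF array, with differences of 0.37 ± 0.10 in iPS (adjusted p = 0.00828) and 0.36 ± 0.10 in R1 (adjusted p = 0.0105).

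Ccl25, the thymus-expressed chemokine, went the other way. It had 100.4, 95.01 and 99.73 in iPS and 110, 114 and 99.0 in R1, against 135, 144 and 128 in MEF, a difference of -0.41 ± 0.06 in iPS (adjusted p = 0.000248) and -0.30 ± 0.06 in R1 (adjusted p = 0.00196). Its other probe set differed by -0.06 in iPS and by -0.07 in R1 and did not pass. Cxcl16, a transmembrane ligand of Cxcr6, had 57.3, 73.5 and 83.3 in iPS, against 37.0, 40.8 and 50.9 in MEF, a difference of 0.56 ± 0.11 (adjusted p = 0.00208). In R1 it had 50.9, 47.5 and 49.9, which overlapped MEF (0.16, adjusted p = 0.310).

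Neighbouring genes gave unlike values. On chromosome 11, Ccl2 and Ccl7 head a run of 6 neighbouring members in which Ccl11, Ccl12, Ccl8 and Ccl1 follow, and no gene after Ccl7 was called. On chromosome 5, Cxcl5 and Ppbp stand at the head of a run of 7 chemokine genes and were the only called genes in it. Here Cxcl1 averaged 139 over the 9 arrays, but Cxcl3, Cxcl2, Pf4 and Cxcl15 averaged only 32.5, 29.0, 22.8 and 11.0. At levels this low, as for Ccl12 and Ccl8, signal is not told apart from background. These low neighbours therefore cannot be read as unchanged. Ppbp had 17.2, 14.9 and 17.4 in iPS and 19.7, 14.7 and 17.5 in R1, against 161, 91.8 and 128 in MEF. All MEF arrays were above the rest. The difference was -2.11 ± 0.15 in iPS cells (adjusted p = 1.40e-06) and -2.07 ± 0.15 in R1 cells (adjusted p = 1.43e-06), or -1.23 and -1.22 with a pseudocount of 64. On chromosome 8, Cx3cl1 fell between Ccl22 (-0.005 in iPS, -0.012 in R1) and Ccl17 (-0.33 in iPS, -0.235 in R1), neither of them called.

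**Figure D3:**
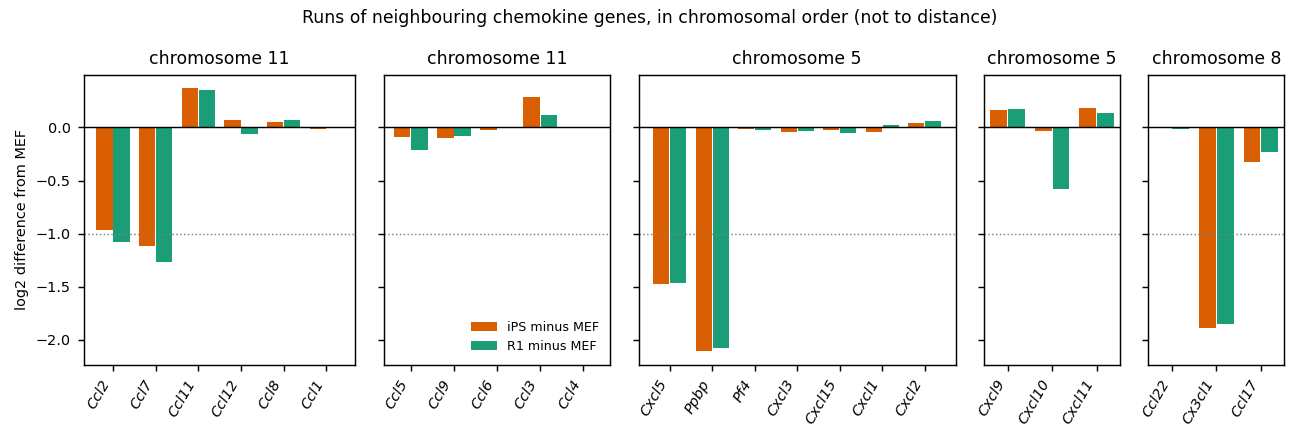
Difference from MEF in log2(signal + 16) (y axis) for runs of 3 or more neighbouring chemokine genes, in their order along the chromosome and not to distance, with iPS minus MEF left of R1 minus MEF. The dotted line marks -1, which bars pass at Cxcl5, Ppbp and Cx3cl1 in both groups, at Ccl7 in both and at Ccl2 in R1.

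Between iPS and R1 cells, 0 of 34 ligands were called by limma, where 0.461% of all genes were called, 0.166% lower and 0.296% higher. At an unadjusted p under 0.05 there were 5 members (Ccl7, Ccl12, Cxcl10, Cxcl12 and Cxcl16), all higher in iPS cells, while 20.6% of all genes passed that level. Cxcl10, an interferon-inducible ligand of Cxcr3, was the only member with an adjusted p under 0.05, a level that 8.52% of all genes passed, 4.40% lower and 4.12% higher. The arrays did not overlap for 6 members, all higher in iPS cells, beside 9.84% of all genes higher and 12.1% lower. It had 80.5, 99.7 and 74.0 in iPS arrays, against 50.9, 57.7 and 49.2 in R1 arrays, and 97.7, 77.7 and 84.5 in MEF. The iPS and MEF arrays overlapped, and both groups lay wholly above R1.

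The Cxcl10 difference was 0.55 ± 0.10 in iPS against R1 (adjusted p = 0.0115), -0.58 ± 0.10 in R1 against MEF (adjusted p = 0.000880) and -0.03 ± 0.10 in iPS against MEF (adjusted p = 0.857). Without R1 replicate 1 the adjusted p of iPS against R1 was 0.0492. Cxcl9 and Cxcl11, the other interferon-inducible CXC ligands, had iPS minus R1 differences of -0.01 and 0.04. Cxcl11 is listed in RefSeq as a transcribed pseudogene in this reference strain.

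For Cxcl12 the iPS minus R1 difference was 0.335 ± 0.104, with an unadjusted 95% interval of 0.10 to 0.57 and an adjusted p of 0.0890. For Cxcl14 the interval was -0.12 to 0.45, for Cx3cl1 -0.265 to 0.190 and for Cxcl5 -0.265 to 0.251. For Ccl7 it was 0.003 to 0.306. The highest upper bound of any member was 0.78, for Cxcl10.

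**Figure D4:**
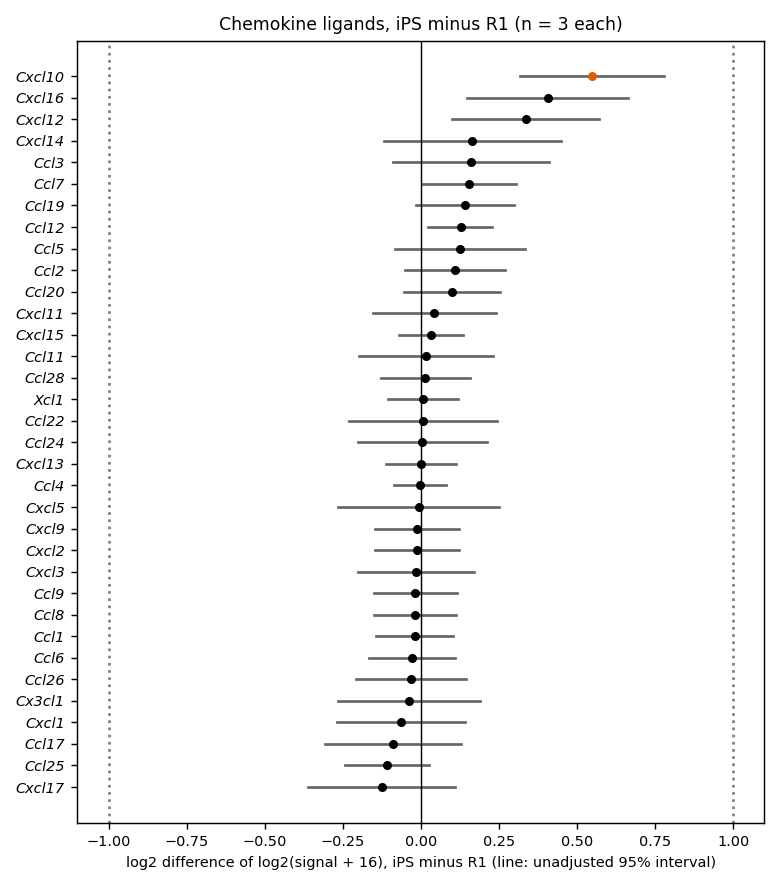
Difference of iPS minus R1 in log2(signal + 16) (x axis) for each of the 34 ligands, sorted, with unadjusted 95% intervals from the fit (n = 3 each) and dotted lines at -1 and 1. No interval reaches 1, and Cxcl10, in orange, has the largest difference at 0.55.

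The receptors showed no call in any comparison. Of 23 chemokine receptor genes analysed, 0 were called by limma in iPS against MEF, in R1 against MEF or in iPS against R1. Without a minimum difference, 3 were higher and 0 lower in iPS against MEF, and 2 were higher and 1 lower in R1 against MEF. Of all genes, 24.8% were higher and 23.2% lower in iPS by this rule, and 25.9% higher and 23.0% lower in R1. Ccr2, the receptor of Ccl2 and Ccl7, had a mean of 15.7 in iPS and 16.2 in R1, against 16.1 in MEF, and Cxcr2, that of Cxcl5, had 8.86 in iPS and 8.86 in R1, against 8.90 in MEF. Signals this low are not told apart from background, and the added 16 compresses their differences. Cx3cr1 averaged 78.3 in iPS and 80.8 in R1, against 81.8 in MEF.

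Cxcl12 has a signalling receptor, Cxcr4, and a scavenging one, Ackr3. Cxcr4 had 148, 139 and 158 in iPS and 133, 131 and 108 in R1, against 131, 107 and 127 in MEF, a difference of 0.26 ± 0.09 in iPS against MEF (adjusted p = 0.0409) that was under the minimum. Ackr3 had 63.6, 82.7 and 80.5 in iPS arrays, against 41.4, 34.3 and 44.3 in R1 arrays, and 58.9, 77.7 and 58.9 in MEF. R1 lay below both other groups, with 0.71 ± 0.12 in iPS against R1 (adjusted p = 0.00627) and -0.53 ± 0.12 in R1 against MEF (adjusted p = 0.00312), neither reaching a difference of 1.

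Genes upstream of inflammatory chemokines were partly lower. Of 25 measured genes of the NF-kB pathway, 6 fell and 0 rose in iPS against MEF, with a median of -0.30, and the same numbers fell and rose in R1 against MEF, with a median of -0.33. Beside this list and those below, 7.58% of all genes fell and 5.08% rose in iPS against MEF. In R1 against MEF, 7.94% of all genes fell and 5.56% rose, and the median of all genes was 0.02 in both comparisons. Tnfrsf1a, a receptor for TNF, differed from MEF by -2.35 ± 0.08 in iPS and -2.82 ± 0.08 in R1. Nfkbiz, an inducible co-regulator, differed by -1.29 ± 0.10 in iPS and -1.90 ± 0.10 in R1, and Rela, a DNA-binding subunit, by -1.03 ± 0.06 in iPS and -1.02 ± 0.06 in R1. Il1rap, Myd88 and Tnfaip3, the other called genes of this list, differed by -1.29, -1.19 and -1.05 in iPS. In R1 they differed by -1.24, -1.06 and -1.36. Of 12 interferon signalling genes, 5 fell and 0 rose in each comparison. They were the receptor chains Ifngr1, Ifngr2 and Ifnar2 and the kinases Jak1 and Jak2, with differences of -1.61 to -2.06 in iPS cells and -1.39 to -2.38 in R1 cells.

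Other inflammatory genes moved both ways. Of 19 measured cytokine and adhesion genes, 4 fell and 2 rose in iPS against MEF, and 4 fell and 3 rose in R1 against MEF. The shares over all genes were 7.58% and 5.08% in iPS and 7.94% and 5.56% in R1. Csf1, the macrophage growth factor, had 152, 170 and 187 in iPS and 195, 254 and 121 in R1, against 1629, 1663 and 1607 in MEF. MEF stood far above both. The difference was -3.15 ± 0.20 in iPS and -3.05 ± 0.20 in R1, and that of the adhesion molecule Vcam1 was -3.05 ± 0.10 in iPS and -3.19 ± 0.10 in R1. Icam1, the adhesion molecule to which leukocyte integrins bind, rose by 1.42 ± 0.11 in iPS and 1.77 ± 0.11 in R1, and the acute-phase gene Saa3 by 1.32 ± 0.22 and 1.13 ± 0.22. Icam1 had 300, 333 and 294 in iPS arrays and 391, 365 and 446 in R1 arrays, against 126, 89.3 and 105 in MEF.

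Genes for shedding, cleaving and presenting chemokines had the lowest median of these lists. Of 16 measured genes, 11 fell and 1 rose in iPS against MEF (median -1.17), and 10 fell and 1 rose in R1 against MEF (median -1.31). Over all genes, 7.58% fell and 5.08% rose in iPS, and 7.94% fell and 5.56% rose in R1. Adam10, a sheddase of Cx3cl1 and Cxcl16, had a mean of 292 ± 26.9 in iPS and 286 ± 31.6 in R1, against 1207 ± 25.6 in MEF (SD, n = 3), while Adam17 was not called (0.07 in iPS, -0.24 in R1). The matrix protease Mmp14 differed by -2.69 ± 0.07 in iPS and -2.99 ± 0.07 in R1. The heparan sulfate proteoglycan Sdc2 differed by -2.11 ± 0.10 in iPS and -3.14 ± 0.10 in R1. It was the only gene of these related lists called between the pluripotent groups (1.03 ± 0.10 in iPS against R1, adjusted p = 0.000385). That call was lost without iPS replicate 3 (0.986), without R1 replicate 1 (0.955) or 3 (just short of 1) and with a pseudocount of 64 (0.752). Dpp4, a surface peptidase that cleaves Cxcl12, rose, with 190, 333 and 345 in iPS and 214, 263 and 220 in R1, against 33.8, 35.3 and 40.8 in MEF.

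**Figure D5:**
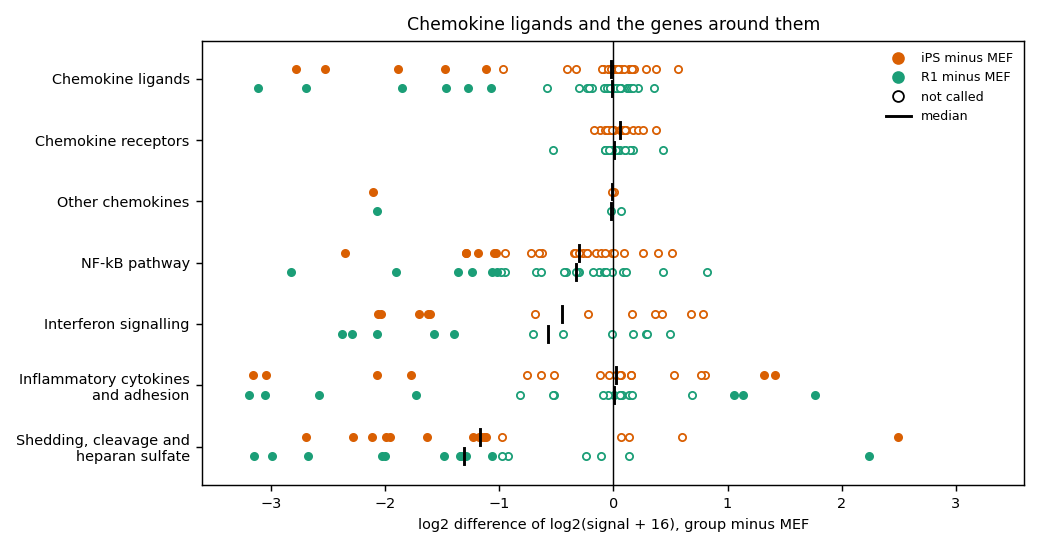
Difference from MEF in log2(signal + 16) (x axis) for the chemokine ligands and 6 lists of related genes, with iPS minus MEF above R1 minus MEF in each row. Each point is a gene, filled where called, and the black line is the list's median, near 0 for ligands and receptors and -1.17 and -1.31 for the shedding, cleavage and heparan sulfate list.

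Markers of the labelled cells and of other cell types were read beside these results. All 8 fibroblast markers fell and all 8 markers of pluripotent cells rose in both comparisons against MEF. The summed fibroblast marker signal was 6206 to 6561 in iPS and 4857 to 6210 in R1, against 38160 to 42090 in MEF. Of 12 macrophage markers, 2 (Cd68 and Laptm5) rose and 0 fell against MEF in both comparisons, with sums of 1364 to 1807 in iPS and 1429 to 1665 in R1, against 561 to 622 in MEF. The other 10 macrophage markers were not called. Among them were Adgre1, which encodes the macrophage surface protein F4/80, and Csf1r, the receptor of Csf1, with array signals of 20.8 to 28.3 and 34.5 to 44.6. Ptprc, which marks blood-lineage cells in general, was also among these 10 uncalled markers. Endothelial markers had 1 of 10 higher and 1 lower in both comparisons, lymphocyte and keratinocyte markers had none called of 8 and 6, and Kit was the only called gene of 5 mast cell and megakaryocyte markers. No marker was listed at 0, and their part in the ligand results was not tested.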

How the data were processed

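RNA of 9 samples was measured on Affymetrix whole-transcript arrays, per the labels. The authors deposited the data as linear intensity, a value for every probe set on every array. GCOS 1.4 is listed in the submitters' processing notes, which give no role for it. How probes were corrected, summarized and normalized is not stated by any source used here. Array medians were 78.3 to 83.3, so no further normalization was applied, and no 2 arrays held identical values. The number of arrays limits the precision.

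Of 35557 probe sets, 21789 had 1 symbol in the platform annotation, giving 19938 genes. Ccl19 and Ccl25 had several probe sets. A further 7 probe sets of several near-identical genes, 4 of the Ccl21 and 3 of the Ccl27 family, were left out of the members. Gene order and promoters came from RefSeq (GRCm38.p6).

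Signals were analysed as log2(signal + 16) in 1 limma 3.58.1 fit of all arrays (lmFit, eBayes, R 4.3.3), with Benjamini-Hochberg adjustment over all genes. The script was tested on simulated data. Alternatives covered normalization, pseudocount, dim genes, probe sets, thresholds, intensity trend, array weights, the groups fitted, the replicate block and leaving out each array. The members and lists were chosen with earlier results of these data known. Members called in any comparison or with a mean signal of at least 200 were named in full, with receptors of those ligands. Other genes named, including those of the related lists, were chosen after their values were seen and not by rank. The replicate numbers were not used to pair the samples in the main fit.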

Additional observations from a re-analysis of the deposited data

Results flagged for a closer look

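Cxcl10 was singled out because its differences from MEF were unlike in the iPS and R1 groups by the test of that difference. The iPS minus R1 difference was 0.548 on the log2(signal + 16) scale (adjusted p = 0.0115, limma), with all 3 iPS arrays above all 3 R1 arrays. Over the alternatives the difference was 0.35 to 0.67 and its adjusted p 0.00358 to 0.0492. Its signals, 84.7 ± 13.4 in iPS, 52.6 ± 4.49 in R1 and 86.6 ± 10.2 in MEF (SD, n = 3), stood beside array medians of 78.3 to 83.3 over all probe sets. Among the 98 measured genes of the related lists, the same test passed for 12, where 8.52% of all genes passed it. Those higher in iPS than in R1 cells were Ackr3 (0.707, adjusted p = 0.00627), Adam17 (0.301, adjusted p = 0.00823), Ifngr1 (0.368, adjusted p = 0.0421), Irf3 (0.219, adjusted p = 0.0407), Mmp14 (0.300, adjusted p = 0.0254), Nfkbiz (0.616, adjusted p = 0.00532), Relb (0.334, adjusted p = 0.00445), Sdc1 (0.212, adjusted p = 0.0194), Sdc2 (1.029, adjusted p = 0.000385), Tnfaip3 (0.317, adjusted p = 0.0390) and Tnfrsf1a (0.473, adjusted p = 0.00690). Tnip1 was lower in iPS than in R1 cells (-0.425, adjusted p = 0.00244). Groups of 3 arrays were too small for a test of single outlying arrays.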

How the results depend on the processing

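The calls against MEF of Cxcl12, Cxcl14, Cx3cl1 and Cxcl5 held under every alternative run, and all 6 named ligands stayed lower than MEF under each. With no minimum difference, the ligands called were 10 in iPS against MEF, 11 in R1 against MEF and 1 (Cxcl10) in iPS against R1, and Cxcl10 was also the 1 called with a minimum of 0.5. Over all genes, no minimum gave 9572, 9750 and 1699 calls in these comparisons, and a minimum of 0.5 gave 5639, 5779 and 541. The balance then moved, with 4627 lower and 4945 higher in iPS against MEF, against 1511 lower and 1013 higher with the minimum of 1. A pseudocount of 64 gave 45 calls in iPS against R1, against 92 with 16, and the cause was not tested. Leaving out 1 array gave 5 to 6 ligands called in iPS against MEF, 6 in R1 against MEF and 0 in iPS against R1, and 2475 to 2594, 2677 to 2738 and 79 to 107 genes of all. With the replicate block, 5, 6 and 0 ligands were called and 2524, 2691 and 92 genes of all. Each number occurs once per group, so the block cannot change a log2 difference, only its SE and p. These equal counts therefore say little about pairing. Same-numbered arrays correlated by -0.08 to 0.25 in their deviations from the group means, over 0.1 in 4 of 9 pairs, and 4 of 9 samples correlated best with an array of their own number. The pairs of replicate 1 gave 0.210 to 0.245, above every other pair between groups. Those of replicate 2 gave 0.018 to 0.196 and those of replicate 3 -0.082 to -0.018. Whether the numbers mark samples handled together was not tested. Differences near 0 changed sign. Cxcl10 in iPS against MEF gave 0.043 with array weights and -0.134 to 0.047 without 1 array. In iPS against R1, leaving out 1 array gave -0.100 to 0.004 for Cx3cl1, -0.116 to 0.056 for Cxcl5 and -0.091 to 0.017 for Ppbp. Signals near background limit what can be seen of the 17 members with means under 50.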
